A study of Mus musculus with 16 samples.

Results

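The expression of 10 T cell marker genes, namely Cd3d, Cd3e, Cd3g, Cd4, Cd8a, Cd8b1, Thy1, Lck, Foxp3 and Il2rb, was followed in skin wounds of WT and diabetic mice. The genes were fixed by name, with earlier results of these data known. Each was read through every array probe whose RefSeq accession belongs to it. This gave 12 probes of the 39429 probes that were not controls, and 10 genes of the 20828 that were named. Cd4 and Cd8a had 2 probes each, and the brighter probe over the 16 arrays represented the gene. RNA came from whole homogenates of full-thickness wounds of 4 mm on the back, which included the intact skin around them. All mice were female. The WT group held untreated C57BL/6J mice of 10 to 12 weeks, and the other groups held db/db mice of 10 weeks (C57BLKS/J Iar-+Lepr db/+Lepr db), which are homozygous for a mutation of the leptin receptor and develop obesity and diabetes. The db/db group was untreated, wounds of the db/db + estrogen group were dosed with estradiol benzoate (0.75 μg/g/day, dissolved in sesame oil), and those of the db/db + vehicle group with that oil only. Each group had 2 arrays labelled day 7 and 2 labelled day 14. Because WT and db/db mice differ in strain as well as in the mutation, the effects of diabetes and strain cannot be told apart. The sources used here do not say whether the 2 arrays of a group came from separate mice, so the tests measure only the spread between these samples.

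T cells recognise antigen through a receptor whose signal is carried into the cell by the CD3 chains, which Cd3d, Cd3e and Cd3g encode. The co-receptors CD4 and CD8 bind MHC class II and class I molecules and bring the kinase Lck to the receptor. Il2rb encodes a chain of the receptors for IL-2 and IL-15, which NK cells also carry, Foxp3 encodes the transcription factor that defines regulatory T cells, and Thy1 encodes a surface protein of mouse T cells that fibroblasts carry too. In mouse skin, T cells include γδ T cells of the epidermis and other T cells of the dermis, and more enter after injury.

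A level is given as the log2 of the probe's signal minus the log2 of the array's 75th percentile, so a value of 0 is the 75th percentile and a difference of 1 is a 2-fold change. Arrays had a 75th percentile of between 1091 and 2548 signal units and no saturated spot, and they measured 70.1% to 79.0% of probes well above background. Differences were tested with limma over all probes in a model of the 8 groups, with 8 residual degrees of freedom. As in the methods of the study, a gene was called when the unadjusted two-sided p was below 0.05 and the change was over 2-fold, and the p adjusted by the Benjamini-Hochberg method over all probes tested is given beside each call. The smallest two-sided p of an exact permutation test of 2 arrays against 2 is 0.333, and precision is limited by these array numbers. The day labels need care. Of 40 fold changes between db/db and WT wounds that the study printed for single genes, 0 lay within 1% of the value from arrays of the same labelled day, whereas 40 matched within 1% when the arrays bearing the other day label were used. Days are therefore named here as labelled, and the order of the days in the wounds is not settled. The labelled days were also scanned on separate days, so scan and labelled day cannot be told apart. The 2 db/db + vehicle arrays of day 7 differed widely for these genes, and 2 arrays cannot show which is typical. Replicate 2 had higher levels than replicate 1 for Cd3d (−0.94 against −3.05), Cd3g (−1.45 against −3.46), Lck (−0.19 against −1.70) and Il2rb (−1.52 against −3.23). For Cd8b1, replicate 1 was the higher (−4.50 against −5.64). Calls that rest on this group are given with and without replicate 2. Other lists of marker genes, given as medians relative to the mean over the arrays, also differed between these arrays, with the dendritic cell list at 0.83 in replicate 2 against −0.52 and the skeletal muscle list at −1.32 against 0.71, and their part in the T cell values was not tested. All 10 fibroblast genes, all 10 keratinocyte genes and all 12 general leukocyte genes on the lists were well above background on every array. The samples included intact skin, so these markers cannot tell wound from skin.

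The promoters of the CD3 genes are shown because Cd3d and Cd3g, which start close to each other on opposite strands of chromosome 9, had the largest differences between db/db and WT wounds on day 7 among the 10 genes, whereas Cd3e, on the same chromosome, differed less. RefSeq sequence of build GRCm38.p6, from 250 bases before to 50 bases after the gene start, was given for 6 of the 10 genes in 8 windows. The windows are chr9:44981536-44981835 on the plus strand for Cd3d, chr9:44980382-44980681 on the minus strand for Cd3g and chr9:45009562-45009861 on the minus strand for Cd3e. Each is printed 5′ to 3′ on the strand of its gene, and capitals mark matches on either strand to a short core motif. The core motif of ETS factors, which act in many blood cells, was searched as GGAAGT. For E proteins, which are partners of lineage factors in lymphocytes, the letters were CAGGTG. The core of the GATA factors, of which GATA3 acts in T cells, was searched as AGATAA, and the core motif of the RUNX family as TGTGGT. The matches printed do not overlap.
Cd3d: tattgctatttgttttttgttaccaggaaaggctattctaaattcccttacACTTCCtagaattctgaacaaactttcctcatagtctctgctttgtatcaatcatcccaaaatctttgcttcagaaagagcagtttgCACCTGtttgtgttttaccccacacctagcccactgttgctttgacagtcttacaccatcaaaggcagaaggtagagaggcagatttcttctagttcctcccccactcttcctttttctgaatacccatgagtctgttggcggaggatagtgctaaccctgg
Cd3g: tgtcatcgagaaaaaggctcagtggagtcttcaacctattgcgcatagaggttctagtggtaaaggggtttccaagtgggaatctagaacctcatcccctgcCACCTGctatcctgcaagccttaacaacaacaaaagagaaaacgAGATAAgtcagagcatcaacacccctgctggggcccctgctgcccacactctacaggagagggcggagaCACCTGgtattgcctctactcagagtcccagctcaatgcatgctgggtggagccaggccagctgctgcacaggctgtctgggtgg
Cd3e: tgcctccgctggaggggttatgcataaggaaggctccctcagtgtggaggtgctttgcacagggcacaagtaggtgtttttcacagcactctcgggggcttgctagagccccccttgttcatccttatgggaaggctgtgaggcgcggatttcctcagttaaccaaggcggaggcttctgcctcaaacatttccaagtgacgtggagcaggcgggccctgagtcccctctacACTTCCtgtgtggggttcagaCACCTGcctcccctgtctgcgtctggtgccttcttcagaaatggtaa
The Cd3d and Cd3e windows each held 1 match to the ETS core and 1 to the E protein core, and the Cd3g window held 2 matches to the E protein core and 1 to the core of GATA factors. Of all 32544 promoter windows of 300 bases, 23.7% held the ETS core, 20.3% the E protein core, 11.2% that of GATA factors and 16.7% the RUNX core. The E protein core was thus present in all of the CD3 windows and in both windows of Lck. It was absent from the Cd8a window and from both windows of Foxp3. The Cd8a window and 1 Foxp3 window held none of the motifs, and the other Foxp3 window held 1 match to the core of GATA factors. These matches are letters in a sequence and were not tested for function.

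Cd3g and Cd3d were lower in db/db wounds than in WT wounds. On day 7, Cd3g lay at −1.20 and −1.50 in the WT arrays and at −3.67 and −3.54 in the db/db arrays (replicates 1 and 2, in this order throughout). The groups did not overlap, and Cd3g fell by 2.25 (SE 0.56), or 4.77-fold (limma, adjusted p = 0.0283). Cd3d lay at −1.21 and −1.73 in WT and at −3.28 and −2.94 in db/db wounds. It fell by 1.64 (SE 0.55), or 3.11-fold, again without overlap, and did not pass adjustment (limma, adjusted p = 0.0800). Cd3e, which encodes the CD3 epsilon chain, lay at 0.87 and 0.66 in WT and at −0.17 and 0.37 in db/db wounds, a difference of −0.67 (SE 0.32) that was not called. In whole-wound RNA, fewer T cells and less RNA per cell cannot be told apart. Both slides of day 7 held 1 array of each group, and the db/db minus WT difference within the slides was −2.47 and −2.04 for Cd3g and −2.07 and −1.20 for Cd3d. The call for Cd3d was lost without WT replicate 1 (−1.37) or db/db replicate 1 (−1.46), whereas the call for Cd3g on day 7 was kept in all 17 alternatives tried. Among these, other filters could not alter the Cd3g call, since its probe was well above background on all 16 arrays.

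**Figure D1:**
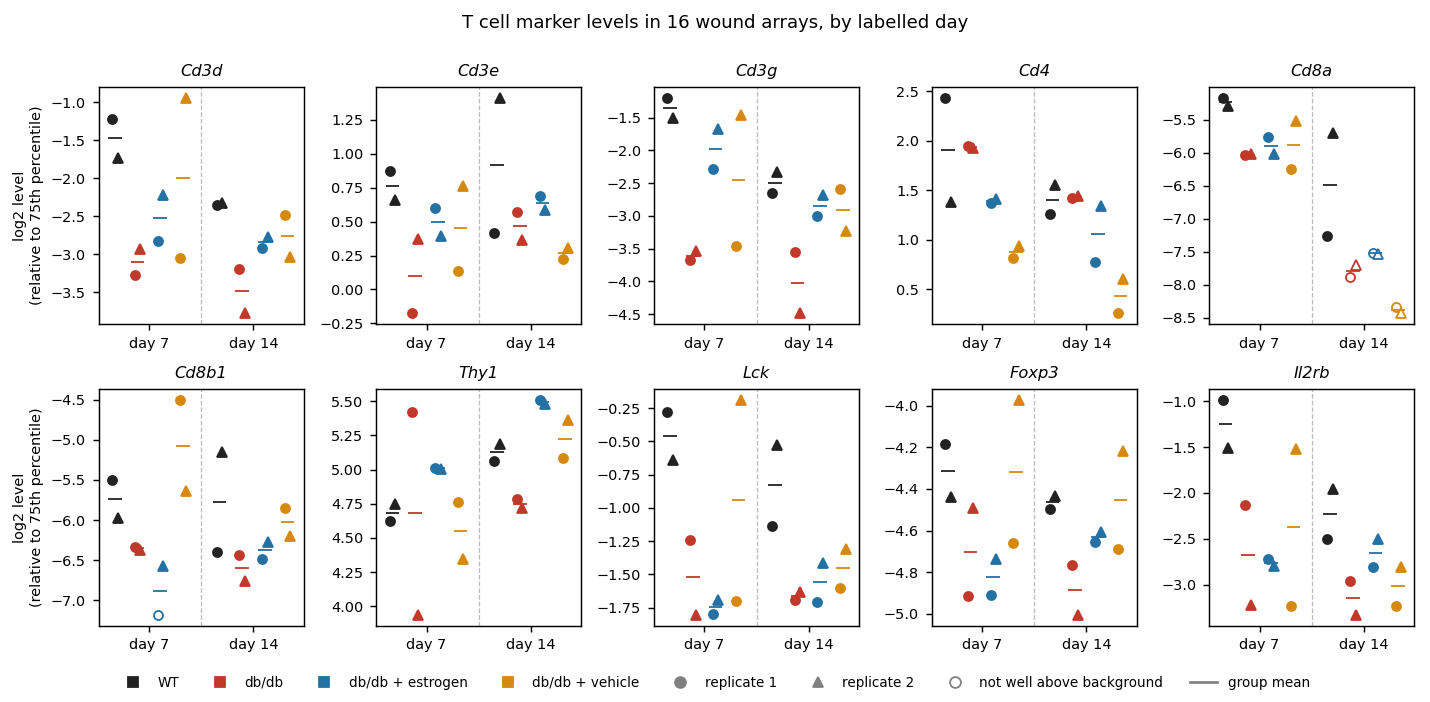
Level of each T cell marker (log2 signal relative to the array's 75th percentile) in the 16 arrays, by group and labelled day; circles and triangles are replicates 1 and 2, bars are group means and open symbols are arrays where the probe was not well above background. Cd3g and Cd3d are highest in the WT day 7 arrays and in 1 of the 2 db/db + vehicle day 7 arrays, and lowest in the db/db day 14 group; axes differ between panels.

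On day 14, Cd3g lay at −2.65 and −2.33 in WT and at −3.56 and −4.49 in db/db wounds. It fell by 1.53 (SE 0.56), without overlap of the arrays (limma, adjusted p = 0.0825). Cd3d lay at −2.35 and −2.33 in WT and at −3.20 and −3.78 in db/db wounds, a difference of −1.15 (SE 0.55) that was not called, although the arrays did not overlap. Cd3e lay at 0.42 and 1.41 in WT and at 0.57 and 0.36 in db/db wounds, and these arrays overlapped. No slide of day 14 held both WT and db/db arrays, so group and slide were separated only through the treated groups; with slide as a block the Cd3g difference was −1.68 and was no longer called. The Cd3g call was also lost without WT replicate 2 (−1.37) or db/db replicate 2 (−1.06), and under quantile normalization (−1.14) or median scaling (−1.13).

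Lck and Il2rb were lower in db/db wounds on day 7. Lck, the kinase that phosphorylates the CD3 chains, lay at −0.28 and −0.64 in WT and at −1.24 and −1.80 in db/db wounds. It fell by 1.06 (SE 0.42), or 2.09-fold (limma, adjusted p = 0.125). Il2rb lay at −0.99 and −1.51 in WT and at −2.13 and −3.22 in db/db wounds and fell by 1.43 (SE 0.52), or 2.69-fold (limma, adjusted p = 0.0987). Neither passed adjustment, and neither gene's arrays overlapped between the groups. On day 14, Lck lay at −1.14 and −0.53 in WT and at −1.69 and −1.63 in db/db wounds, a difference of −0.83 (SE 0.42), and Il2rb lay at −2.50 and −1.95 in WT and at −2.96 and −3.33 in db/db wounds, a difference of −0.92 (SE 0.52). Both pairs of groups were again separate, and neither difference was called. The day 7 calls of both genes were lost without WT replicate 1 (−0.88 for Lck and −1.16 for Il2rb) or without db/db replicate 2 (−0.78 and −0.88), and that of Lck under median scaling (−0.87).

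The co-receptor genes did not follow a single pattern. Cd4 lay at 2.43 and 1.38 in WT and at 1.94 and 1.92 in db/db wounds on day 7, and at 1.26 and 1.55 against 1.42 and 1.44 on day 14. The db/db minus WT differences were 0.03 (SE 0.31) and 0.02 (SE 0.31), and the WT arrays lay on both sides of the db/db arrays on both days. The other Cd4 probe was far dimmer, with a mean level of −5.03 over the 16 arrays against 1.30, so the level of the Cd4 transcript is not settled. It gave differences of −0.31 and −0.42 in the same comparisons, so the probes differed in sign there. Over the 12 comparisons within a day they had the same sign in 9. Cd4 is also expressed by some myeloid cells, whose markers are described below.

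Cd8a was near the detection limit. On day 7 its probe was well above background on all 8 arrays, at −5.17 and −5.28 in WT and −6.03 and −6.02 in db/db wounds, and the difference of −0.80 (SE 0.41) was not called. On day 14 it lay at −7.27 and −5.70 in WT wounds, and on none of the 6 arrays of the db/db groups was it well above background. The measured values were −7.88 and −7.70 in the db/db group, −7.51 and −7.53 in the db/db + estrogen group and −8.33 and −8.43 in the db/db + vehicle group. Against the lowest signals that count as well above background, Cd8a in WT wounds was higher by at least 1.71-fold than in db/db wounds. The bound was at least 1.59-fold against db/db + estrogen and at least 1.92-fold against db/db + vehicle wounds, so all were under 2-fold. The calls rest instead on the measured differences of −1.31, −1.04 and −1.90 (limma, adjusted p = 0.0505, 0.130 and 0.0162, respectively). The probe entered these tests only through the WT group. For such a bound, the dim probe is given on each array the lowest signal that still counted as well above background, or its own signal where this was larger. The WT values rest on replicate 2, which was the dimmest array, and without it the measured difference between db/db and WT was −0.52 and was not called. The call for db/db + estrogen was lost without WT replicate 2 (−0.26), db/db + estrogen replicate 1 (−1.05) or replicate 2 (−1.03), and that for db/db + vehicle was kept without any single array (−1.11 to −2.68). Settings that treat dim signals otherwise also ended these calls, with differences of −0.56, −0.40 and −0.67 under normexp background and of −0.77, −0.67 and −0.94 with a floor on dim signals. The second Cd8a probe was well above background on 11 arrays, was lower in db/db than in WT wounds on both days (−0.99 and −1.25), and had the same sign as the first in 10 of the 12 comparisons.

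Cd8b1, which encodes the other chain of the CD8 heterodimer, was called in the treated groups but not between db/db and WT wounds. It lay at −5.50 and −5.98 in WT, −6.33 and −6.37 in db/db, −7.18 and −6.58 in db/db + estrogen and −4.50 and −5.64 in db/db + vehicle wounds on day 7. Only the value of −7.18 was not well above background. The db/db + vehicle arrays lay above those of the db/db group by 1.28 (SE 0.45; limma, adjusted p = 0.263), and the db/db + estrogen arrays lay below those of the db/db + vehicle group by 1.81 (SE 0.45; limma, adjusted p = 0.0581) and below those of WT by 1.14 (SE 0.45; limma, adjusted p = 0.208). None passed adjustment, and the 3 calls were lost when the background was corrected by normexp (0.52, −0.54 and −0.57), and those of db/db + estrogen also when a probe had to be well above background on all 4 arrays. Without db/db + vehicle replicate 2, the first difference was 1.85 and the second −2.38. The first call was also lost without db/db + vehicle replicate 1 (0.71), without db/db replicate 1 (1.30) and without db/db replicate 2 (1.26). The third was lost without WT replicate 1 (−0.90) or db/db + estrogen replicate 1 (−0.84), and under quantile normalization (−0.91). On day 14, Cd8b1 lay at −6.40 and −5.15 in WT, −6.44 and −6.76 in db/db, −6.48 and −6.27 in db/db + estrogen and −5.85 and −6.19 in db/db + vehicle wounds, and no difference was called.

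Foxp3 and Thy1 were not called in any comparison. Foxp3 ranged from −5.01 in a db/db array of day 14 to −3.97 in a db/db + vehicle array of day 7, and its db/db minus WT difference was −0.39 (SE 0.25) on day 7 and −0.42 (SE 0.25) on day 14. The arrays of these groups were separate on both days, but the difference was under 2-fold. Thy1 ranged from 3.94 to 5.51, and these extremes were a db/db array of day 7 and a db/db + estrogen array of day 14. Its db/db replicates of day 7 lay at 5.42 and 3.94 and spanned all values of the other groups of that day. On day 14 Thy1 lay at 5.07 and 5.19 in WT, 4.78 and 4.72 in db/db, 5.51 and 5.48 in db/db + estrogen and 5.08 and 5.36 in db/db + vehicle wounds, so that the db/db arrays were the lowest and the db/db + estrogen arrays the highest, with differences that were not called (0.74, SE 0.37, for db/db + estrogen against db/db).

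Taking the 10 genes in turn, 9 had a lower mean in db/db than in WT wounds on day 7 and 9 on day 14. The genes were chosen with earlier results of these data known, so the shares of all probes are no independent test. On day 7, 4 were called, all lower, where 14.1% of all probes tested were called and 8.42% were called lower. On day 14, 2 were called, both lower, where 18% of all probes were called and 15.6% were called lower. Thus 2 of 10 is near the share among all probes. Of these 2 genes, Cd8a was called on its measured difference, although its bound was 1.71-fold. After adjustment 1 gene, Cd3g, was called on day 7 (9.07% of all probes) and 0 on day 14 (13.6%). The median difference of the genes was −0.73 on day 7 and −0.83 on day 14, against −0.05 and −0.12 over all probes. For 8 genes on each day, all db/db arrays lay below all WT arrays, where 31.9% of all probes did so on day 7 and 40.3% on day 14. The number of genes with a lower mean was 8 to 10 in both comparisons under all 18 settings, the main one included. Several of these settings cannot change the sign of a mean difference, namely other filters, the adjusted p, the fit of 4 arrays and the replicate block. On day 7, WT arrays had lower 75th percentiles (1204 and 1404) than db/db arrays (2318 and 1824). Before scaling, only Cd3g (182.4 and 156.5 in db/db, 523.5 and 495.3 in WT) and Cd3d of the 8 genes stayed separate. Cd3e (2053 and 2361 in db/db, 2206 and 2213 in WT), Cd8a, Cd8b1, Lck and Il2rb overlapped. Foxp3 was higher in db/db wounds (77 and 81 against 66 and 65). The separation of these other genes on day 7 thus came with the scaling. The share of called probes that were higher depended on the scaling, from 40.3% on day 7 to 55.3% when arrays were scaled by their medians, and from 13.1% to 40.7% on day 14; the medians of all probes then moved to 0.15 and 0.28, and the medians of the 10 genes were −0.53 and −0.43.

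**Figure D2:**
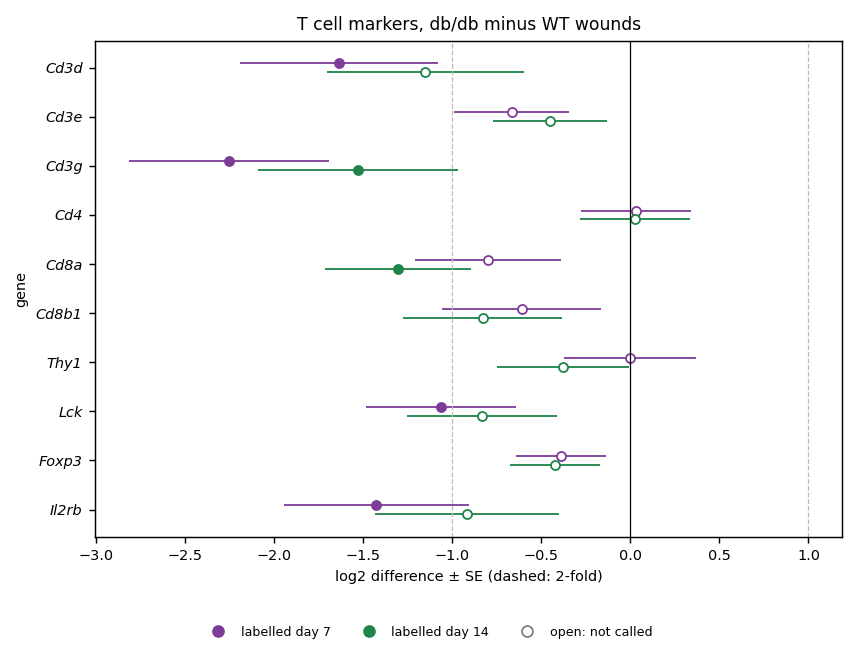
Difference in log2 level between db/db and WT wounds (limma estimate, bars are ± SE, 2 arrays per group) for each gene; filled points were called and dashed lines mark a 2-fold change. Cd3g lies at −2.25 on day 7 and −1.53 on day 14, and Cd4 lies near 0 on both (0.03 and 0.02). The Cd8a point of day 14 is the measured difference (−1.31) against db/db arrays where it was not well above background. The bound for Cd8a there, at least 1.71-fold, is not drawn.

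Estrogen was compared with the untreated db/db wounds. On day 7, Cd3g lay at −2.28 and −1.67 in db/db + estrogen wounds, above both db/db arrays, and rose by 1.63 (SE 0.56), or 3.09-fold (limma, adjusted p = 0.131). It was the only gene called, where 9.92% of all probes were called and 5.22% were called higher. Cd3d lay at −2.82 and −2.22, also above both db/db arrays, with a difference of 0.58 (SE 0.55) that was not called. The Cd3g call was lost without db/db replicate 1 (1.57) or db/db + estrogen replicate 2 (1.32), and the difference was 1.38 and 1.87 within the slides. Lck and Il2rb, at −1.80 and −1.69 and at −2.71 and −2.80, differed from the db/db group by −0.22 (SE 0.42) and −0.08 (SE 0.52). The median difference of the 10 genes was 0.03, against 0.04 over all probes.

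On day 14, none of the 9 genes tested was called between db/db + estrogen and db/db wounds by limma, neither with the adjusted p nor at an unadjusted p under 0.05 alone, where 3.91% of all probes were called. Of them, 8 had a higher mean with estrogen, and for 6 all estrogen arrays lay above all db/db arrays, where 27.5% of all probes did so. Cd3g lay at −3.01 and −2.68, a difference of 1.18 (SE 0.56), and Cd3d at −2.91 and −2.78, a difference of 0.64 (SE 0.55). Cd8a was not tested, since it was not well above background in either group. For 6 genes, the arrays of the oil alone also lay above the same db/db arrays, as given below.

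The oil alone was also compared with the untreated db/db wounds. On day 7, 2 genes were called, Cd8b1 higher and Cd4 lower, where 4.82% of all probes were called. Cd4 lay at 0.81 and 0.94 in db/db + vehicle wounds, below every other array of that day, and fell by 1.06 (SE 0.31), or 2.08-fold, against db/db wounds (limma, adjusted p = 0.189) and by 1.03 (SE 0.31) against WT wounds (limma, adjusted p = 0.0685). On day 14 it lay at 0.26 and 0.60, again below every other array, and fell by 1.00 (SE 0.31) against db/db wounds (limma, adjusted p = 0.159). Cd4 in db/db + estrogen wounds lay between these groups, at 1.37 and 1.41 on day 7 and 0.78 and 1.34 on day 14, and was not called against any group. The differences of Cd4 were close to 2-fold and came from the brighter probe, while the dimmer probe gave −0.38, −0.69 and −0.20. With the mean of both probes the differences were −0.72, −0.86 and −0.60 and were not called. They were also not called with normexp (−0.96, −0.93 and −0.89), and that against WT was not called under median scaling (−0.86). For single arrays, the day 7 calls were lost without db/db + vehicle replicate 1 (−0.99 and −0.97), the call against WT also without WT replicate 1 (−0.50), and the day 14 call without db/db replicate 2 (−0.99) or db/db + vehicle replicate 1 (−0.83).

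The CD3 results of the oil group on day 7 depended on which of its 2 replicates was kept. Between db/db + vehicle and db/db wounds on day 7, the differences were 1.15 (SE 0.56) for Cd3g and 1.11 (SE 0.55) for Cd3d, and neither was called. Without replicate 2 they were 0.14 and 0.06, and without replicate 1 they were 2.15 and 2.17 and both were called, as were Lck (1.34) and Il2rb (1.16). On day 14, where the oil arrays lay at −2.60 and −3.23 for Cd3g and at −2.48 and −3.04 for Cd3d, all above both db/db arrays, the differences were 1.11 (SE 0.56) and 0.73 (SE 0.55) and were not called. One gene, Cd4, was called there, where 7.51% of all probes were called. Of the 9 genes tested there, 7 had a higher mean with the oil. For 6, all oil arrays lay above all db/db arrays, where 38.3% of all probes did so. For 2, all oil arrays lay below, where 27.3% of all probes did so. The median difference of the genes was 0.43 with the oil and 0.26 with estrogen on that day.

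Estrogen in oil was set against the oil alone. On day 7 Cd8b1 was called, as given above, where 8.99% of all probes were called, and on day 14 no gene was, where 0.984% were called. The differences for Cd3g were 0.48 (SE 0.56) on day 7 and 0.07 (SE 0.56) on day 14, and those for Cd3d were −0.53 (SE 0.55) and −0.09 (SE 0.55). Without db/db + vehicle replicate 2 on day 7, Cd3g was called higher with estrogen (1.49), and without replicate 1 Cd3d (−1.58), Lck (−1.56) and Il2rb (−1.24) were called lower. Without replicate 2 Cd3d stood at 0.53 and Il2rb at 0.47, and without replicate 1 Cd3g stood at −0.52. The direction for these genes thus turned with the array left out. Lck stood at −0.04 without replicate 2, close to no difference, so its difference too rested on that array. On day 14, 0 of the 9 genes tested had an unadjusted p under 0.05 in limma or a call after adjustment.

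**Figure D3:**
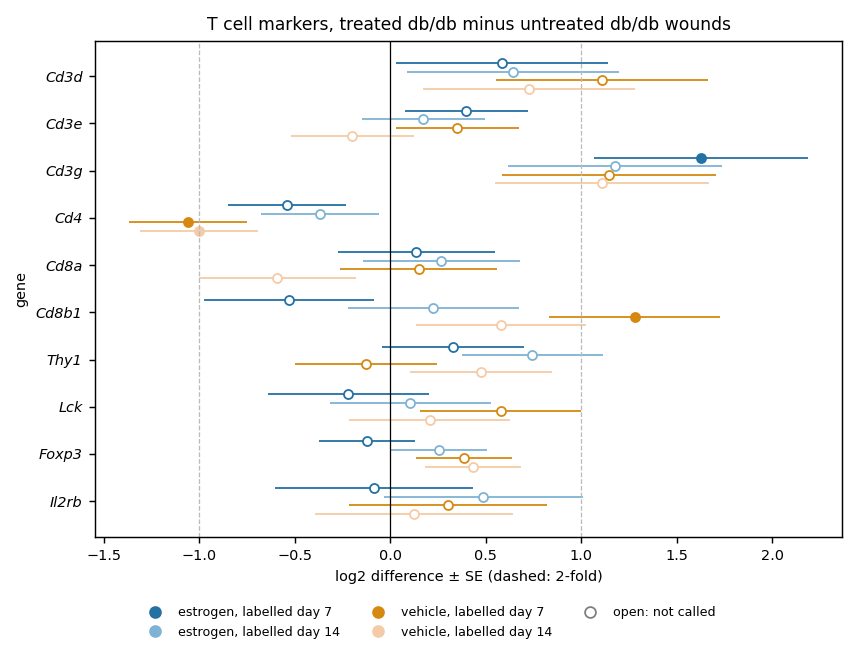
Difference in log2 level between treated and untreated db/db wounds (limma estimate, bars are ± SE, 2 arrays per group) for estrogen in oil and for oil alone on each labelled day; filled points were called. Cd3g lies between 1.11 and 1.63 in all 4 comparisons, which share the db/db arrays of their day. Only its estrogen difference of day 7 was called, without passing adjustment, and its oil difference of day 7 rested on replicate 2. Cd4 is lowest with the oil alone.

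Both treated groups were also set against WT. With estrogen, 3 genes were called on day 7, all lower, where 8.13% of all probes were called, namely Lck (−1.29, SE 0.42), Il2rb (−1.51, SE 0.52) and Cd8b1 (limma, adjusted p = 0.133, 0.151 and 0.208). Cd3d and Cd3g differed from WT by −1.05 (SE 0.55) and −0.62 (SE 0.56) and were not called. All of these calls were lost without WT replicate 1, where Lck stood at −1.11 and Il2rb at −1.25. Lck was also lost without db/db + estrogen replicate 1 (−1.23) and Il2rb without db/db + estrogen replicate 2 (−1.47). On day 14 only Cd8a was called, on its measured difference, where 13.3% of all probes were called. With the oil, Cd4 was called on day 7 (10.3% of all probes) and Cd8a on day 14 (13.4%), again on its measured difference. The Cd8a bounds in both comparisons were under 2-fold, as given above. Without db/db + vehicle replicate 2, 6 genes were called between db/db + vehicle and WT on day 7, with Cd3g at −2.11, Il2rb at −1.98, Cd3d at −1.58, Lck at −1.24 and Cd4 at −1.09 lower and Cd8b1 at 1.24 higher.

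Between the labelled days, Cd8a was the gene called, lower on day 14 in each group. The differences were −1.26 (SE 0.41) in WT, −1.77 in db/db, −1.63 in db/db + estrogen and −2.51 in db/db + vehicle wounds (limma, adjusted p = 0.282, 0.0234, 0.0331 and 0.00540, respectively). Because the probe was not well above background in the db/db groups on day 14, the last 3 stand as at least 2.35-fold, at least 2.40-fold and at least 2.92-fold. The WT value rests on replicate 1 of day 14, without which the difference was −0.48 and was not called, whereas without replicate 2 it was −2.04. The second Cd8a probe gave −0.54, −0.80, 0.05 and −1.13 for the 4 groups, and so differed in sign from the first in db/db + estrogen wounds. The shares of all probes called between the days were 4.32%, 12.6%, 13.9% and 11.7%. Whether the differences between groups changed with the day was tested for each gene in 4 contrasts. Of these 40 tests, 0 had an adjusted p under 0.05 in limma (lowest adjusted p = 0.432), and 1 had an unadjusted p under 0.05, for Cd8b1 in the comparison of estrogen with the oil (1.46, SE 0.63). Among all probes, the shares that passed the unadjusted call rule in these tests were 9.39% for db/db against WT, 6.27% for estrogen and 2.81% for the oil against db/db, and 7.16% for estrogen against the oil.

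The order of the 8 groups differed between genes. Cd3d, Cd3g, Cd8a, Lck, Foxp3 and Il2rb had their highest mean in WT wounds of day 7, at −1.47 ± 0.37 (SD, n = 2) for Cd3d, −1.35 ± 0.21 for Cd3g, −5.23 ± 0.08 for Cd8a, −0.46 ± 0.25 for Lck, −4.31 ± 0.18 for Foxp3 and −1.25 ± 0.37 for Il2rb. Cd3d, Cd3g, Foxp3 and Il2rb had their lowest mean in db/db wounds of day 14, at −3.49 ± 0.41, −4.02 ± 0.66, −4.89 ± 0.17 and −3.14 ± 0.26. Most neighbours in the order could not be separated by their arrays, with 7 of 7 neighbouring pairs overlapping for Cd3e and Lck, 6 of 7 for Cd3d, Foxp3 and Cd8b1, 5 of 7 for Cd4 and Il2rb and 4 of 7 for Cd3g and Thy1. For Cd8a, the 3 groups of db/db mice on day 14 were not well above background and have no order among them, and 2 of the 4 neighbouring pairs of the other groups overlapped. For Cd3g, WT wounds of day 7 stood above the next group, db/db + estrogen wounds of day 7 (−1.98 ± 0.43), and the db/db groups of both days stood below all others.

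The genes with the profile most like the CD3 genes were found by the Pearson correlation with the mean level of Cd3d, Cd3e and Cd3g over the 16 arrays, which share their groups and slides. Among 16858 other genes, the first 5 were Zap70 (r = 0.958), H2-Eb1 (0.942), Igtp (0.922), Cd163l1 (0.906) and Cxcr6 (0.905). Zap70 encodes the kinase that binds phosphorylated CD3 chains, H2-Eb1 an MHC class II chain of antigen-presenting cells, Igtp an interferon-induced GTPase, Cd163l1 a scavenger receptor of γδ T cells and Cxcr6 a chemokine receptor of T cells. When each group's mean was removed, the correlations were 0.93, 0.87, 0.83, 0.83 and 0.85. The genes were chosen on these same arrays. The db/db + vehicle replicates of day 7, which differed more in Cd3d and Cd3g than those of any other group, weigh heavily in these values. The correlations were not computed without either of these oil arrays. Zap70 lay at −0.85 and −0.94 in WT and at −2.37 and −2.32 in db/db wounds on day 7, and at −2.24 and −0.77 in db/db + vehicle wounds, so that it was high in the same oil array as Cd3d and Cd3g. Among the members that do not enter the mean, r was 0.789 for Il2rb, 0.755 for Lck, 0.688 for Foxp3, 0.588 for Cd8a, 0.288 for Cd8b1, 0.145 for Cd4 and −0.187 for Thy1. Of the genes that form the mean, r was 0.973 for Cd3g and 0.9625 for Cd3d but 0.653 for Cd3e. The mean thus followed Cd3d and Cd3g more than Cd3e.

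**Figure D4:**
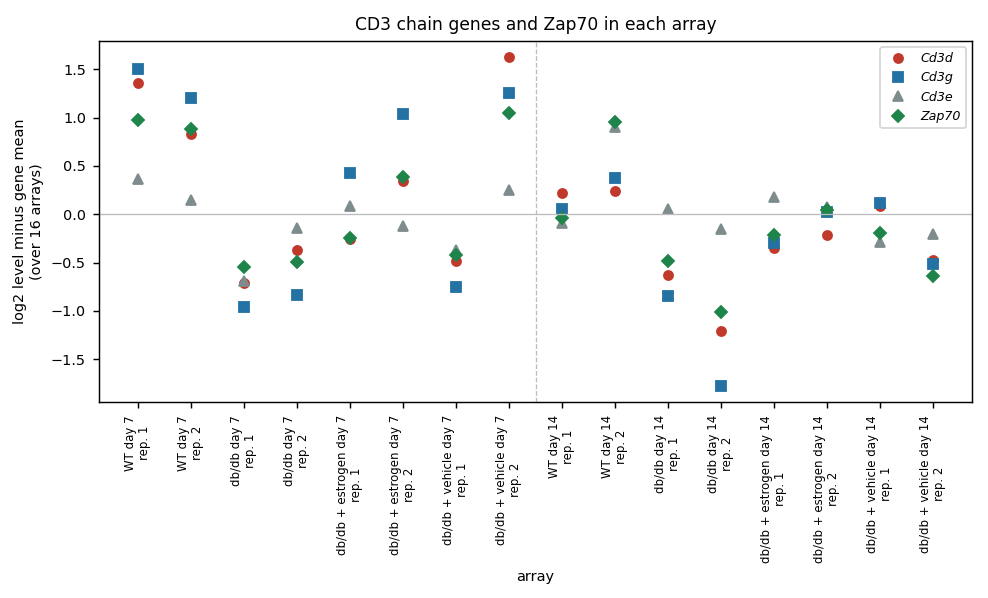
Level of Cd3d, Cd3g, Cd3e and Zap70 in each array, as the log2 level minus the mean of the gene over the 16 arrays. Cd3d, Cd3g and Zap70 lie above their means in the WT day 7 arrays and in replicate 2 of db/db + vehicle day 7, and below them in all 4 db/db arrays; Cd3e spans a smaller range.

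Genes that work with the T cell receptor were followed as lists, which were also chosen with earlier results of these data known. In the comparison of db/db with WT wounds, the counts below stand beside 8.42% of all probes called lower and 5.67% called higher on day 7, and 15.6% and 2.35% on day 14. Of 18 genes of T cell receptor signalling tested, 0 were called higher and 7 lower on day 7, with a median difference of −0.88, and 0 higher and 6 lower on day 14, with a median of −0.75. On day 7 the smallest p-values belonged to Cd5 (−1.27, SE 0.38), Cd2 (−1.20, SE 0.37), Rasgrp1 (−1.41, SE 0.44) and Zap70 (−1.45, SE 0.47), which encode an inhibitory receptor, an adhesion receptor, an activator of Ras and the kinase named above, with limma's adjusted p from 0.0539 to 0.0685. On day 14 Trat1 (−2.07, SE 0.64; limma, adjusted p = 0.0484), Cd5 (−1.05, SE 0.38) and Cd247 (−0.77, SE 0.29) were among the genes with the smallest p-values, of which Cd247, encoding the CD3 zeta chain, was not called and was well above background on 7 arrays. After adjustment 0 of the 18 were called on day 7 and 1 on day 14. Themis, which T cells need for development, was not well above background on any array.

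Of 16 transcription factors of T cell fate tested, 1 was called higher and 8 lower on day 7, with a median of −1.07. On day 14, 0 were called higher and 3 lower, which is near the share of all probes called lower, and the median was −0.50. Tcf7 and Lef1, which encode related factors of early and resting T cells, differed by −1.75 (SE 0.35) and −2.75 (SE 0.62) on day 7, Tox by −1.42 (SE 0.31) and Bcl11b, needed for commitment to the T lineage, by −1.64 (SE 0.39), with limma's adjusted p from 0.0129 to 0.0233. Tcf7 (−1.61) and Bcl11b (−1.47) were called on day 14 too. Lef1, Tox and Bcl11b are not restricted to T cells, since hair follicle and epidermal cells express some of these factors. Among 16 genes of costimulation and checkpoints, 3 were called higher and 5 lower on day 7. Cd28 (−2.17, SE 0.56) and Icos (−1.81, SE 0.49), which encode costimulatory receptors, were lower, whereas Havcr2 (1.41, SE 0.24) and Tnfrsf9 (2.26, SE 0.53), which myeloid cells also express, were higher.

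Genes of the IL-2 and IL-7 receptor system and of regulatory T cells moved in both directions. Of 11 genes of the receptor system, 3 were called higher and 1 lower on day 7, namely Jak3 (1.24, SE 0.13), Il15ra (2.09, SE 0.44) and Il2ra (3.57, SE 0.94) higher and Cish (−1.33, SE 0.23), a target of IL-2 signalling, lower. Il2rb thus fell while Il2ra, which encodes the alpha chain of the IL-2 receptor, rose in the same comparison. On day 14, 2 were called higher, Il2ra (2.16, SE 0.94) and Il7r (1.23, SE 0.46), and none lower. Of 10 genes of regulatory T cells, 4 were called higher and 2 lower on day 7. Il10 (2.97, SE 0.20) and Nt5e (1.94, SE 0.40), which other leukocytes or stromal cells express as well, rose, as did Il2ra and Ccr8, and Tnfrsf18 (−1.30, SE 0.40) and Ikzf2 (−1.13, SE 0.46) fell. On day 14, 1 was called higher, Il2ra, and 3 lower, namely Izumo1r (−1.46, SE 0.26), Tnfrsf4 (−1.46, SE 0.28) and Tnfrsf18 (−1.57, SE 0.40), and these 3 passed adjustment. Of 8 genes of γδ and epidermal T cells tested on day 7, 1 was called lower, Cd163l1 (−2.77, SE 0.63). On day 14, 4 of 10 were called lower, Blk (−2.06, SE 0.43), Il17f (−1.83, SE 0.53), Il17a (−2.19, SE 0.80) and Cd163l1 (−1.69, SE 0.63), of which Blk and Il17f passed adjustment in limma (adjusted p = 0.0113 and 0.0369). Genes of the γδ receptor itself were not named on the array and were not analysed here.

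Markers of other leukocytes moved with these groups. Natural killer cells, which share Il2rb and Lck with T cells, had 0 of 11 genes called higher and 5 lower on day 7, with Klrd1 at −2.69 (SE 0.54) and Ccl5 at −2.64 (SE 0.70), and 3 lower on day 14. The summed level of the 13 natural killer genes ran from 8.84 to 15.6 in WT and from 2.83 to 6.16 in db/db wounds on day 7, in units of the 75th percentile. Of 11 genes of dendritic cells and antigen presentation, 7 were called lower on day 7 and 5 on day 14, among them Ciita (−3.04, SE 0.60) and H2-Ab1 (−2.23, SE 0.41) on day 7, and all 12 calls passed adjustment. Xcr1, a marker of cross-presenting dendritic cells, was not well above background on any array. The part of these cells in the results for Il2rb and Lck was not tested.

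Other leukocyte lists went the opposite way. Of 12 genes that most leukocytes share, 6 were called higher in db/db wounds on day 7 and 4 on day 14, and none lower, with Ptprc, which encodes CD45, at 1.18 (SE 0.21) on day 7. Of 11 macrophage genes, 7 were called higher and 1 lower on day 7 and 5 higher and 1 lower on day 14, with Cd14 at 3.34 (SE 0.42) and Msr1 at 1.87 (SE 0.20) on day 7. Of 9 neutrophil genes, 6 were called higher on day 7, with a median of 5.24, and 4 higher and 1 lower on day 14. The summed macrophage level ran from 76.7 to 128 in WT and from 196 to 214 in db/db wounds on day 7. Calls among the receptor signalling genes were thus all lower, and those among the general leukocyte genes all higher, in the same wounds, and the part of the makeup of the leukocytes in the CD3 results was not tested. Of 8 B cell genes, 2 were called higher on day 7, both also after adjustment, among them Cd79b (1.38, SE 0.37), which encodes a chain of the B cell receptor complex. Of 9 on day 14, Cd79b was called higher (1.05, SE 0.37), and none was called lower on either day. Fibroblast genes, of which 1 of 10 was called on day 7 and 0 on day 14, and keratinocyte genes, of which 2 and 3 of 10 were called lower, are given because Thy1 is expressed by fibroblasts and because wounds differ in their epidermis; their part was not tested either. Of 6 adipocyte genes 1, Lep, was called higher on each day, and 0 of 6 skeletal muscle genes were called.

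**Figure D5:**
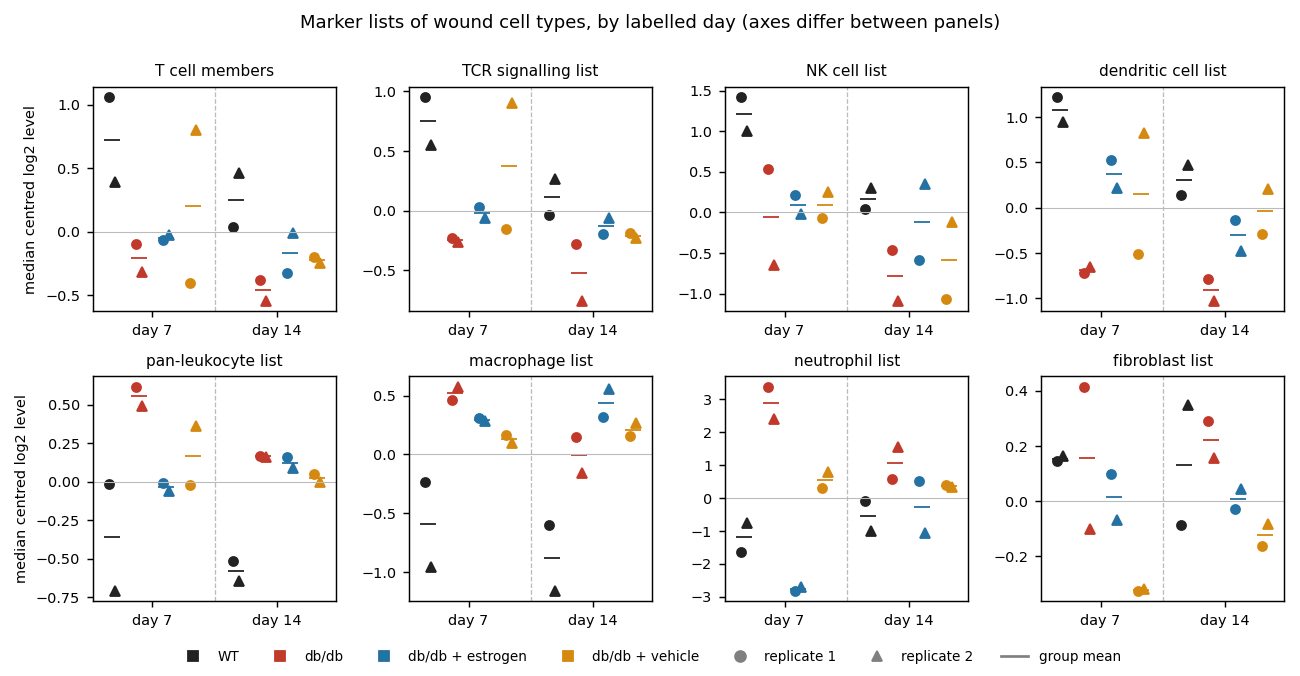
Median over a list of the level of its genes, each centred on its own mean over the 16 arrays (log2 units), for every array by group and labelled day; bars are group means and axes differ between panels. The 10 T cell genes, receptor signalling and dendritic lists lie below 0 in all 4 db/db arrays, the natural killer list lies between −1.09 and 0.54 in them, and the general leukocyte, macrophage and neutrophil lists are above 0 in both db/db arrays of day 7.

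The same lists were compared between treated and untreated db/db wounds. With estrogen on day 7, 5.22% of all probes were called higher and 4.71% lower. The median difference of the 18 genes of receptor signalling was 0.15. Of 16 fate factors, 4 were called higher and 1 lower, with Gata3 (1.83, SE 0.55), Lef1 (1.95, SE 0.62) and Bcl11b (1.13, SE 0.39) higher and Runx3 (−2.23, SE 0.36) lower, and only Runx3 passed adjustment (limma, adjusted p = 0.00739). Il2ra (−4.22, SE 0.94), Il15ra (−2.01, SE 0.44) and Il2rg (−1.61, SE 0.26) were lower, as were Il10 (−1.24, SE 0.20) and Nt5e (−2.33, SE 0.40). In the same comparison 5 of 11 dendritic genes were called higher, with a median of 1.24, and 8 of 9 neutrophil genes lower, with a median of −6.25. The summed neutrophil level ran from 50.1 to 65.0 with estrogen and from 441 to 518 in db/db wounds. The part of these cells in the difference of Cd3g was not tested. Lef1 and Bcl11b are not restricted to T cells, as given above. The keratinocyte list lay at −0.84 and −0.19 in db/db and at 0.18 and −0.21 in db/db + estrogen wounds on day 7. Its part in the differences of the fate factors was not tested.

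With the oil on day 7, 3 of 18 genes of receptor signalling were called higher, where 2.52% of all probes were, with a median of 0.52, and none lower; they were Rasgrp1 (1.48, SE 0.44), Cd5 (1.33, SE 0.38) and Cd2 (1.01, SE 0.37). The median of that list was 0.90 in replicate 2 and −0.16 in replicate 1, relative to the mean over the arrays, so that this list too was higher in replicate 2. Without replicate 2, a fit chosen after seeing the data, 1 gene of the list was called higher and 1 lower with a median of −0.03, and only Rasgrp1 of those named was called (1.52, against 0.67 for Cd5 and 0.54 for Cd2); without replicate 1, 9 of 19 were called higher. On day 14, 2 of 17 were called higher with the oil, Rasgrp1 (1.94, SE 0.44) and Trat1 (2.13, SE 0.64), where 5.31% of all probes were, and 1 of 16 with estrogen, Rasgrp1 (1.39, SE 0.44), where 2.56% were. Of the γδ genes, Il17f (2.16, SE 0.53), Il17a (1.88, SE 0.80) and Cd163l1 (1.55, SE 0.63) were called higher with the oil on day 14, with limma's adjusted p from 0.118 to 0.263. None of these calls passed adjustment.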

How the data were processed

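RNA of 16 skin wounds was measured on one-colour Agilent mouse arrays. The authors deposited scanner files with an intensity for each spot, from which Feature Extraction 11.0.1.1 had subtracted background and spatial trends without scaling between arrays. The deposited flags, which carry no unit and are read as marks, say whether a spot was an outlier, saturated or well above background. The authors also deposited a table of 34643 probes made in GeneSpring 12.1, a linear ratio of intensity to the array's 75th percentile; for at least 99.4% of probes of each array it equalled the scaling used here to within 0.1%, after removal of a constant of 0.999 to 1.002 per array. Its medians ran from 0.139 to 0.182, no centring of genes was found, and it served as an alternative.

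Outlier spots were left out, spots of a probe were averaged, and the log2 of the signal minus that of the 75th percentile over probes other than controls was used. RefSeq named 69.5% of the probes by accession. Groups, days and replicate numbers came from the sample labels. limma 3.58.1 in R 4.3.3 was fitted to the 8 groups; probes entered a test when either group had both its arrays well above background, with thresholds of 0.05 for the unadjusted p and 2 for the fold change. The procedure was tested on simulated data. Alternatives were normexp background (offset 50), quantile and median scaling, the deposited ratios, other filters and a floor on dim signals, a fit restricted to the 4 arrays of a comparison, the slide as fixed or random block (statmod 1.5.0), a replicate block, adjusted p, the mean of all probes of a gene, and leaving out each array.

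The rule for named genes was every member with all its probes, with values of every array for members called or dim on some arrays; from each of 16 gene lists, up to 4 genes with the smallest unadjusted p in the comparison described and defining markers not above background; and the 5 other genes most correlated with the mean of Cd3d, Cd3e and Cd3g among probes well above background on at least 8 arrays. The members and lists were chosen with earlier results of these data known. Results for a few genes of the lists are not reported here. Motif letters were counted in RefSeq promoter windows, and for 1190 of 1190 overlapping windows on opposite strands the sequences read 5′ to 3′ on the strand of the gene. The arrays' design uses another genome build, so probes are given no coordinates.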

Additional observations from a re-analysis of the deposited data

How the results depend on the processing

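The number of the 10 T cell genes called in the 12 comparisons within a labelled day stayed within 1.5 times its main value in 136 of 204 values and moved in 68. None of 17 single calls reversed, although several settings cannot change a sign, as given above. Below, comparisons are named in the order of the groups, with E for db/db + estrogen and V for db/db + vehicle. With normexp background the counts were 0 for V vs db/db, E vs V and V vs WT on day 7, 1 for db/db vs WT on day 14, and 0 for V vs db/db, E vs WT and V vs WT on day 14. Quantile normalization gave 2 for V vs WT on day 7, and on day 14 0 for db/db vs WT, V vs db/db and E vs WT and 2 for V vs WT. Median scaling gave 0 for V vs WT on day 7 and 0 for db/db vs WT and E vs WT on day 14. A filter on all 4 arrays gave 0 for E vs V on day 7, and on day 14 1 for db/db vs WT and 0 for E vs WT and V vs WT. A floor on dim signals gave 2 for V vs WT on day 7, and on day 14 1 for db/db vs WT and 0 for E vs WT and V vs WT. A fit of just the arrays in the comparison gave 0 for V vs WT on day 7, and on day 14 1 for E vs db/db and 0 for E vs WT. Slide as a fixed block gave 0 for db/db vs WT and E vs WT on day 14, and as a random block 0 for V vs db/db and 2 for V vs WT on day 14. With the Benjamini-Hochberg adjusted p the counts were 1 for db/db vs WT and 0 for E vs db/db, V vs db/db, E vs V, E vs WT and V vs WT on day 7, and 0 for db/db vs WT, V vs db/db and E vs WT on day 14. The mean of all probes of a gene gave 1 for V vs db/db and 0 for V vs WT on day 7, and 0 for V vs db/db and E vs WT on day 14. The filters and the adjustment change the counts by their construction; elsewhere the cause was not tested.

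Leaving out 1 array at a time gave, on day 7, 1 to 4 for db/db vs WT, 0 to 1 for E vs db/db, 1 to 4 for V vs db/db, 1 to 4 for E vs V, 0 to 4 for E vs WT and 0 to 6 for V vs WT, and on day 14 0 to 3, 0 to 1, 0 to 2, 0 to 0, 0 to 2 and 1 to 3 for the same comparisons; where 1 array was left in a group it was assumed to vary like the other groups. On day 7 the replicate number was also the slide, so the replicate block is a slide block there, and on day 14 it was not. Replicate numbers were not taken as pairs, since the correlation of replicate differences between groups ran from −0.31 to 0.39 on day 7, where 1 of 6 pairs was over 0.1, and from −0.45 to 0.32 on day 14, where 2 of 6 were. With a replicate block the counts on day 7 were 4 for db/db vs WT, 1 for E vs db/db, 2 for V vs db/db, 1 for E vs V, 3 for E vs WT and 1 for V vs WT, and on day 14 2, 0, 1, 0, 1 and 1, the main values. The share of called probes that were higher moved under median scaling from 38.0% to 52.6% for V vs WT and from 44.8% to 54.9% for E vs WT on day 7, and from 19.0% to 48.0% and from 18.9% to 48.1% on day 14; under quantile normalization it moved from 65.3% to 53.5% for E vs db/db on day 14. Signal over background limits Cd8a, measured on 10 of 16 arrays, and Cd8b1, on 15.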
